A study of Mus musculus with 9 samples.

Results

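A set of 10 genes that encode neuropeptide precursors was followed through all 9 libraries of the series. They were Cck, Gal, Tac1, Penk, Npy, Sst, Vip, Cartpt, Nppb and Vgf, matched by symbol in the deposited gene tables, 10 of the 30406 genes that all libraries share. They were chosen by their UMI levels over cell types and days in these same libraries, so those levels are given as a description without a test. Tests were run only on the difference between genotypes.

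The cells were mouse embryonic fibroblasts (MEFs), a primary culture of mid-gestation embryos from which the head and the heart had been removed, pooled from 4 embryos per preparation per the study's methods. All cultures carried lentiviruses for neuronal reprogramming factors, which turn fibroblasts into induced neurons when doxycycline is present. The genotypes were WT, Per1-/- and Per2-/-, the last 2 being whole-body knockouts of a clock gene (alleles Per1tm1Drw and Per2tm1Drw on a B6.129 background, per the study's methods), and cells were taken on days 4, 7 and 10 after doxycycline was added. There was 1 library per genotype and day, so no value has a replicate within a day.

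A neuropeptide gene encodes a long precursor that enters dense-core vesicles, where prohormone convertases cut it and further enzymes trim and amidate the fragments. The released peptide then acts on G protein-coupled or, for natriuretic peptides, guanylyl cyclase receptors of nearby cells. Neurons are the best known source, but several of these precursors are also made outside the nervous system, for instance in endocrine, mesenchymal and immune cells.

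Libraries held 126625215 to 353198559 UMIs (unique molecular identifiers, which count captured transcripts) over 6885 to 13309 barcodes, and 73557 cells were kept. Cells were clustered without the members, and clusters were named from marker genes: 8119 cells were neuron-like (16 of 17 neuron markers at least 2-fold higher than in all other cells), 37596 fibroblast-like (17 of 19), 6407 macrophage-like (15 of 15) and 3330 skeletal muscle-like (13 of 14), and 12952 cells stayed unnamed. The library of WT on day 10 stood apart, with 55.4% of its barcodes past the quality limits and 34.2% of its kept cells in 1 unnamed cluster that held at most 0.361% of any other library. Unnamed clusters together held 60.3% of WT, 44.2% of Per2-/- and 7.12% of Per1-/- cells on day 10, against 5.05% to 15.6% on days 4 and 7. Levels in named classes on day 10 therefore leave out many cells of WT and of Per2-/-. Barcode sequences found in more than 1 library numbered 667 among kept cells, and 3.87% of such pairs fell in the same cluster. Day 10 was processed with another Cell Ranger version and gene table than days 4 and 7, so day 10 and that change cannot be told apart. Over all kept cells Per1 was at 9.10 to 10.3 CPM (counts of a gene scaled to a common total of all UMIs) in the libraries labelled Per1-/- and 6.31 to 7.82 in WT, and Per2 was at 4.96 to 6.50 in those labelled Per2-/- and 2.61 to 2.94 in WT, so the 3′ tags of the targeted genes were not lower under their own label. Whether these alleles remove the 3′ end is not given in the sources used here, and 3′ tags do not measure the proteins, which the study examined in MEFs of these genotypes by western blotting.

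The members lie on separate loci, Tac1 and Npy both on chromosome 6 and Penk and Nppb both on chromosome 4. In GENCODE M21 on GRCm38 the gene spans are chr9:121489824-121495694 for Cck, chr19:3409915-3414544 for Gal, chr6:7554879-7565834 for Tac1, chr4:4133531-4138819 for Penk and chr6:49822710-49829507 for Npy. Those of the others are chr16:23889573-23890958 for Sst, chr10:5639218-5647617 for Vip, chr13:99898489-99901091 for Cartpt, chr4:147985788-147987205 for Nppb and chr5:137026392-137033351 for Vgf. Penk overlaps the transcript A830012C17Rik on the other strand, and since the strand setting of the counting is not given in the sources used here, its counts are uncertain in that respect. The other 9 overlap no annotated gene.

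The 250 bases before the RefSeq start (build GRCm38.p6) could be read for 8 of the 10 members, all but Penk and Vgf. They were searched on both strands for TGACGTCA, the cyclic AMP response element known from the somatostatin promoter, and for CACGTG, the E-box that the clock activator CLOCK-BMAL1 binds and on which the PER proteins act as repressors. Cck and Tac1 each held 1 CACGTG, which 6.02% of 32851 promoters of this length hold. Sst and Cartpt each held 1 TGACGTCA, which 1.55% hold. These 4 sequences are shown because they set 2 abundantly detected members beside 2 that were hardly detected, and capitals mark the motif. They are Cck at chr9:121495695-121495944 (minus strand), Tac1 at chr6:7554811-7555060 (plus strand), Sst at chr16:23890845-23891094 (minus strand) and Cartpt at chr13:99900684-99900933 (minus strand), each printed 5′ to 3′ and ending at the base before the start.
Cck: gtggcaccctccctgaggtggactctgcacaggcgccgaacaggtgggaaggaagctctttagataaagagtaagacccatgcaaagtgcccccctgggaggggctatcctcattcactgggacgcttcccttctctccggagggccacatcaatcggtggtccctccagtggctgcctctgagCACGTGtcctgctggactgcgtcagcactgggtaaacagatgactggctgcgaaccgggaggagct
Tac1: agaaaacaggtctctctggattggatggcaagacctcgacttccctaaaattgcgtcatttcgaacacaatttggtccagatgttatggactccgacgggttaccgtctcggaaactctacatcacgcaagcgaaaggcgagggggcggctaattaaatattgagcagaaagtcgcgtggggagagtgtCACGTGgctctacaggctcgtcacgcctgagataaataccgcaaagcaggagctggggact
Sst: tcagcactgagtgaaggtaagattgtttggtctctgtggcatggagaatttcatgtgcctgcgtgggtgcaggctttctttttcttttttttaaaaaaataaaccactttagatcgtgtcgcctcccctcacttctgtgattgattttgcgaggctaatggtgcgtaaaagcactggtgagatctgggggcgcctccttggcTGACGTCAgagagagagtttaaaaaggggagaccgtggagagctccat
Cartpt: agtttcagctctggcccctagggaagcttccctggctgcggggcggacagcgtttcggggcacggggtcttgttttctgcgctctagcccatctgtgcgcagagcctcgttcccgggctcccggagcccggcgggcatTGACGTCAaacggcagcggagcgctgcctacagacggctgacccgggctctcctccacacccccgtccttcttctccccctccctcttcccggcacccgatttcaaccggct
The E-box ended 61 bases before the start in Cck and 56 in Tac1. The response element ended 41 bases before the start in Sst and 105 in Cartpt. TATAAA was searched on both strands and was in Vip and Nppb, each time on the coding strand (12.4% of promoters held it on either strand). CAGCTG on both strands was in Nppb (13%), and the octamer ATGCAAAT on both strands was in none of the 8 (1.60%). A match is a description of letters and says nothing of binding.

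Summed by class, 5 of the 10 members reached 5 CPM in neuron-like cells, namely Gal, Cck, Vgf, Tac1 and Penk, but neuron-like cells held the highest mean only for Gal, Vgf and the barely detected Cartpt. Penk and Tac1 were mainly transcripts of fibroblast-like cells, Cck of skeletal muscle-like cells and Npy of macrophage-like cells. Means are over libraries with at least 20 cells of a class and are given ± SD, and a sum over a class cannot tell fewer expressing cells from fewer transcripts per cell.

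**Figure D1:**
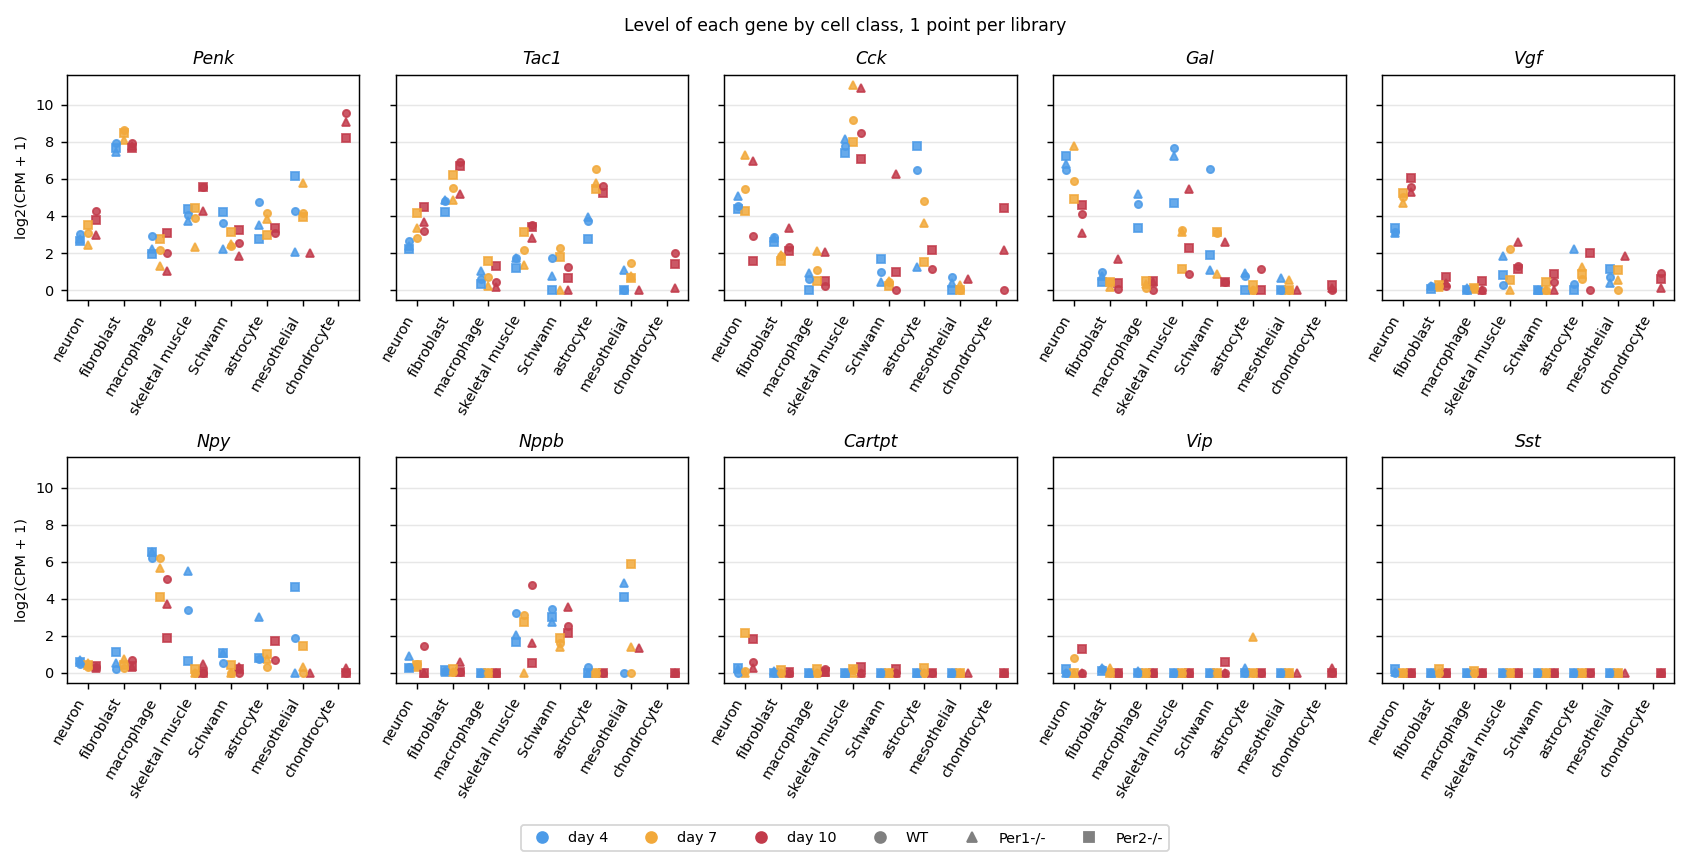
Level of each of the 10 members as log2(CPM + 1) on the y axis by cell class on the x axis, with 1 point per library. Vgf stood above every other class in neuron-like cells (7.57 to 64.8 CPM), Penk was high in fibroblast-like (177 to 398 CPM) and chondrocyte-like cells, Npy in macrophage-like cells and Cck in skeletal muscle-like cells (132 to 2156 CPM), while Sst, Vip and Cartpt lay near 0.

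Penk encodes proenkephalin, the precursor of the opioid enkephalins. It was the most widely detected member, with a UMI in 38.4% of kept cells, and fibroblast-like cells held 78.3% of its UMIs. In fibroblast-like cells Penk was at 243, 398 and 245 CPM in WT on days 4, 7 and 10. It was at 177, 273 and 222 CPM in Per1-/-. It was at 205, 360 and 206 CPM in Per2-/-. Within this class all 3 genotypes were highest on day 7, with a day 7 range of 273 to 398 CPM against 177 to 243 on day 4 and 206 to 245 on day 10. The clusters behind the class changed by day, however. Clusters 0, 1, 4 and 6 had at most 1.28% of their cells from day 10, cluster 2 had 99.8% from that day, and the class held 20% of WT, 55.0% of Per1-/- and 18.1% of Per2-/- cells on day 10 but 53.3% to 66.7% before. Over all kept cells, whatever their class, WT was highest on day 10, with 163, 286 and 425 CPM of Penk over the 3 days, while Per1-/- (122, 169 and 165 CPM) and Per2-/- (151, 261 and 217 CPM) were highest on day 7. Within cluster 1 Penk was at 460, 822 and 1906 CPM, the last from 21 cells, so the lower day 10 level of the class as named was not seen in that cluster. Penk is not given by day for the other fibroblast-like clusters, so nothing is read for them from cluster 1. The mean over libraries was 259 ± 74.3 CPM (SD, n = 9). Chondrocyte-like cells, found on day 10 only, held 533 ± 233 CPM (n = 3), which overlapped the fibroblast-like range, and the next class, mesothelial-like cells, held 25.7 ± 25.8 CPM (n = 7), which did not. Among fibroblast-like clusters Penk was highest in cluster 4 (573 CPM, leading genes Adamts3, Apela, Eln and Hoxd13) and cluster 1 (565 CPM, leading genes Slc14a1, Tnn, Grem1 and Hoxd12). The unnamed cluster 3, with cartilage genes such as Comp and Hapln1 among its leading genes, held 511 CPM in 5514 cells, of which 5512 came from day 10. It had 18 of the 19 fibroblast markers in at least 50% of its cells. It stayed unnamed because its leading genes held more markers of another class. The day 10 levels of fibroblast-like cells, of Penk and of other members, therefore leave this cluster out. With every cell thinned to 3000 UMIs, 26.7% of fibroblast-like cells had a Penk UMI (26.3% to 27.2%, exact Clopper-Pearson 95% interval) against 2.16% of neuron-like and 1.14% of macrophage-like cells. Unthinned shares were 51.1%, 8.79% and 7.60% at median depths of 23285, 11896 and 22024 UMIs. Macrophage-like cells had been taken as the class that should lack the peptide, and the thinned share of neuron-like cells was near that of Schwann-like cells (2.07%), so low shares in several classes were alike and the part of free RNA in them was not tested. All intervals cover counting error only.

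Tac1 encodes the precursor of substance P and neurokinin A, which excite neurons and act in pain and inflammation. Fibroblast-like cells held 66.7% of its UMIs and unnamed clusters 29.3%. In fibroblast-like cells Tac1 was at 26.8, 45.3 and 119 CPM in WT on days 4, 7 and 10. It was at 27.6, 27.8 and 34.9 CPM in Per1-/-. It was at 17.8, 71.7 and 104 CPM in Per2-/-. Within this class each genotype was lowest on day 4 and highest on day 10, and the Per1-/- libraries of days 7 and 10 were the lowest of their days. Over all kept cells that order of days held in WT, where Tac1 was at 35.1, 46.5 and 49.8 CPM, but not in Per1-/- or Per2-/-. Per1-/- cells had 35.6, 26.4 and 26.5 CPM, and Per2-/- cells 21.8, 67.1 and 31.0 CPM. The gene was concentrated in 2 clusters that both led with Otor and Tac1, cluster 10 (442 CPM) and cluster 18 (420 CPM), although Tac1 itself had been kept out of clustering. Cluster 10, with 0.469% of its cells from day 10, was at 324 and 516 CPM on days 4 and 7, and cluster 18 held cells of day 10 only. Their other leading genes included Sphkap, Brinp3 and Cbln2, and in cluster 10 also Calca, the gene of calcitonin gene-related peptide. The 1109 fibroblast-like cells with at least 10 Tac1 UMIs carried 436 CPM of the 17 neuron markers and 20013 CPM of the 19 fibroblast markers, against 164 and 32778 CPM in fibroblast-like cells with no Tac1 UMI. In neuron-like cells Tac1 ranged from 3.60 to 5.27 CPM on day 4 and reached 8.02 to 21.2 CPM by day 10, while the clusters of that class changed. Within cluster 5 it was at 2.51 and 2.38 CPM on days 4 and 7, in cluster 20 at 13.2 and 25.7 CPM, and in cluster 27 at 2.58, 7.31 and 1.42 CPM on the 3 days, so the order of the class did not hold in each cluster. An unnamed cluster led by Gcg, Pln, Lin28b and Pou3f2 held 180 CPM.

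Cck encodes cholecystokinin, a gut hormone and one of the most abundant peptides of the brain. Skeletal muscle-like cells held 72.4% of its UMIs, at a mean of 669 ± 783 CPM (SD, n = 9), followed by neuron-like cells with 47.1 ± 54.3 CPM and astrocyte-like cells with 43.6 ± 74.9 CPM (n = 8), and these ranges overlapped. The astrocyte-like level rested on few cells, since 4 of 958 had at least 10 Cck UMIs and held 95.6% of the 819 in that class. In skeletal muscle-like cells Cck was at 215, 567 and 350 CPM in WT on days 4, 7 and 10. It was at 284, 2156 and 1897 CPM in Per1-/-. It was at 167, 251 and 132 CPM in Per2-/-. The Per1-/- library was the highest and the Per2-/- library the lowest on each day, and the value of Per2-/- on day 10 rested on 1 cell, without which it was 20.3 CPM. Of the neuron-like clusters, cluster 27 (leading genes Htr3a, Ecel1, Hrk and Nefl) held 252 CPM of Cck. The 37 neuron-like cells with at least 10 Cck UMIs carried 3068 CPM of the 14 skeletal muscle markers, of which 3 were at 0, against 156 CPM in neuron-like cells with no Cck UMI. Their neuron markers were at 4060 CPM against 5767 CPM. The part of mixed cells or of cells with features of both lineages in this level was not tested.

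Gal encodes galanin, an inhibitory peptide of sensory and hypothalamic neurons that rises after nerve injury. Neuron-like cells held 56.9% of its UMIs and skeletal muscle-like cells 25.2%. In neuron-like cells Gal was at 86.7, 57.6 and 16.3 CPM in WT on days 4, 7 and 10. It was at 113, 221 and 7.44 CPM in Per1-/-. It was at 150, 28.8 and 22.8 CPM in Per2-/-. Every day 10 library lay below every day 4 library, and the high value of Per1-/- on day 7 was 127 CPM without its highest cell. The share of neuron-like cells with at least 10 Gal UMIs was 2.06% to 3.07% on day 4 and 0.525% to 0.913% on day 10. Gal was highest in clusters 5 (126 CPM) and 27 (95.8 CPM) and low in cluster 20 (3.22 CPM), and within cluster 5 it was at 141, 81.7 and 4.51 CPM on days 4, 7 and 10, the last from 1 UMI in 23 cells. Its levels by day within cluster 27 are not given here, so the order of days in cluster 5 is not read as that of the other clusters. The 164 neuron-like cells with at least 10 Gal UMIs carried 5400 CPM of neuron markers against 5704 CPM in those with none. In skeletal muscle-like cells Gal ranged from 25 to 204 CPM on day 4 and was down to 0.853 to 42.2 CPM by day 10, and in macrophage-like cells it was at 9.12 to 35.6 CPM on day 4, where 1 cell per library held 59.5% to 98.9% of the UMIs.

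Vgf encodes a granin-like protein that neurons make in response to growth factors and that is cut into several bioactive peptides. It was the member most restricted to neuron-like cells, which held 79.6% of its UMIs at 29.5 ± 19.5 CPM (SD, n = 9), and no library overlapped the next class, skeletal muscle-like cells at 1.69 ± 1.70 CPM. In neuron-like cells Vgf was at 7.65, 31.9 and 45.9 CPM in WT on days 4, 7 and 10. It was at 7.57, 24.6 and 37.8 CPM in Per1-/-. It was at 9.33, 36.4 and 64.8 CPM in Per2-/-. The level was higher on each later day in each genotype, and the ranges of the 3 days did not overlap. Cells with a Vgf UMI made up 7.17% to 7.90%, 13.6% to 23.3% and 26.8% to 39.7% of neuron-like cells over the same days. The makeup of the class changed with the day: cluster 5 held 77.1% to 81.5% of neuron-like cells at first, 54.5% to 63.9% by day 7 and 0.600% to 3.67% by day 10, when cluster 22 held 73.2% to 87.9%. From day 4 to day 7 Vgf went from 4.73 to 20 CPM in cluster 5 and from 23.7 to 59.7 CPM in cluster 20 (leading genes Myt1l, Vwc2l, Scg2 and Scg3), so the day 7 level was higher within these clusters as well. From day 7 to day 10 no such step was seen: Vgf was at 10.6 and 5.31 CPM in cluster 27, 20 and 13.5 CPM in cluster 5 (23 cells on day 10) and 69.5 and 63.4 CPM in cluster 22 (27 cells on day 7). Cluster 22, led by Snhg11, Caly, Stmn3 and Pcsk1n, held 63.5 CPM in all. At 3000 UMIs per cell 4.97% of neuron-like cells (4.50% to 5.46%) and 0.0312% of macrophage-like cells had a Vgf UMI, and the unthinned shares were 15.6% and 0.219%.

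**Figure D2:**
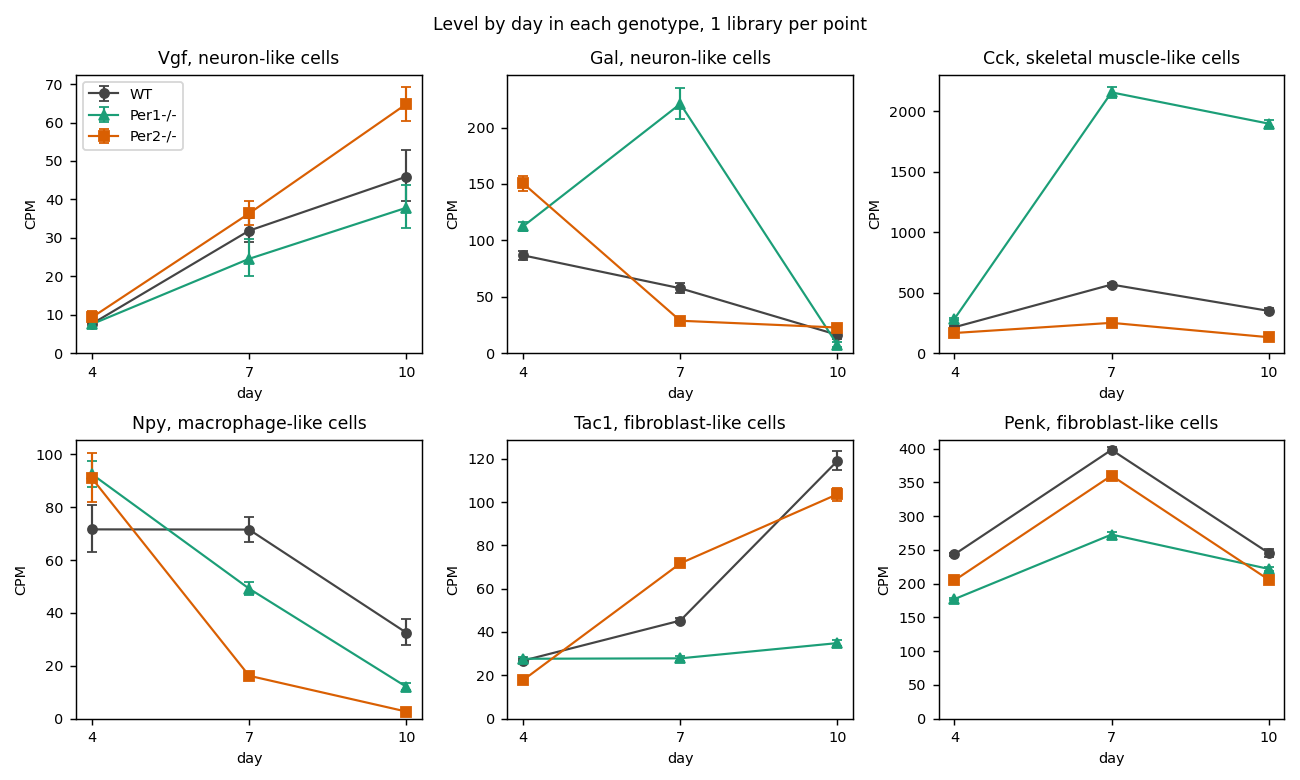
CPM on the y axis against day of reprogramming on the x axis for 6 pairs of a member and a cell class, with 1 point per library coloured by genotype and bars for the exact Poisson 95% interval, which covers counting error only. Vgf in neuron-like cells was higher on each later day, Gal in neuron-like and Npy in macrophage-like cells ended below their day 4 ranges, Penk in the cells named fibroblast-like was highest on day 7 (over all WT cells it was highest on day 10), and Cck in skeletal muscle-like cells was spread from 132 to 2156 CPM.

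Npy encodes neuropeptide Y, an appetite and sympathetic transmitter that some immune cells also make. Macrophage-like cells held 78.1% of its UMIs at 48.8 ± 34.5 CPM (SD, n = 9). There Npy was at 71.6, 71.5 and 32.5 CPM in WT on days 4, 7 and 10. It was at 92.5, 49.2 and 12.0 CPM in Per1-/-. It was at 90.9, 16.2 and 2.64 CPM in Per2-/-. Every day 10 library lay below every day 4 library, and on days 7 and 10 WT was the highest and Per2-/- the lowest. The share of macrophage-like cells with a Npy UMI was 45.4% to 62.1% on day 4 and 2.14% to 18.3% on day 10. Npy was at 58.2 CPM in cluster 26 (leading genes of cell division such as Mki67, Plk1 and Cep55) and at 46.8 CPM in cluster 9 (Cx3cr1, Cd52 and Mpeg1), and it was at 9.46 CPM in cluster 13 (Ccl8, Cd5l and Fcgr2b). All cells of cluster 13 came from day 10 and 0.271% of those of cluster 9 did, so these clusters and the days cannot be told apart. Within cluster 26 it was at 80.2, 65.7 and 22.6 CPM on days 4, 7 and 10, and in cluster 9 it went from 91.9 to 34.7 CPM between days 4 and 7. The 126 macrophage-like cells with at least 10 Npy UMIs carried 43.0 CPM of neuron markers against 48.5 CPM in those with no Npy UMI. In neuron-like cells Npy was at 0.201 to 0.625 CPM.

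Nppb encodes B-type natriuretic peptide, a hormone of stretched heart muscle and a transmitter of itch neurons. It was low, with 983 UMIs in all, of which skeletal muscle-like cells held 34.3%, mesothelial-like cells 24.1% and Schwann-like cells 17.7%. The means were 15.1 ± 21.7 CPM in mesothelial-like (n = 7), 6.24 ± 8.06 in skeletal muscle-like and 5.40 ± 3.37 in Schwann-like cells, with overlapping ranges. Of 2555 Schwann-like cells 108 had a Nppb UMI, and 0 had at least 10. Of 490 mesothelial-like cells 12 had a Nppb UMI, and the 4 with at least 10 held 89.9% of the 237 UMIs of the class. The mesothelial-like levels therefore rest on very few cells. In mesothelial-like cells the 3 libraries with the most were Per2-/- on day 7 (57.9 CPM) and Per1-/- (28.2 CPM) and Per2-/- (16.2 CPM) on day 4. The WT libraries of days 4, 7 and 10 held 0 UMIs there, from 49, 21 and 12 cells, which allows up to 2.45, 6.30 and 34.2 CPM (exact Poisson 95% limit). Of macrophage-like cells 0 of 6407 had a Nppb UMI, which allows a share of cells with a UMI of up to 0.0468% by 3 counts of the total, or 0.0576% by the exact Clopper-Pearson 95% interval, and sets no limit on cells that express the gene.

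The remaining members were hardly detected. Cartpt, the precursor of the satiety peptide CART, had 158 UMIs in 75 cells, of which neuron-like cells held 58.9%, and 48 and 33 of those 93 UMIs came from Per2-/- on days 7 and 10 (3.43 and 2.56 CPM). A single cell held 35 of these 93 UMIs, and the 2 neuron-like cells with at least 10 held 57.0%. Vip, the precursor of vasoactive intestinal peptide, which couples clock neurons of the suprachiasmatic nucleus, had 156 UMIs in 45 cells and a highest class mean of 0.376 CPM. Sst, the precursor of somatostatin, had 40 UMIs in 11 of 73557 cells, and 2 fibroblast-like cells held 75.0% of them. Of 8119 neuron-like cells 2 had a Sst UMI.

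Read across days, members whose day 4 and day 10 ranges did not overlap were few in each class. In neuron-like cells 2 of 7 members past the filter on low counts were above on day 10 (Vgf, Tac1) and 1 was below (Gal), where 22.2% and 30.7% of all genes past the filter were above and below. In fibroblast-like cells 1 of 8 was above (Tac1) and 1 below (Vip), against 21.9% and 16.6% of all genes. In macrophage-like cells 0 of 5 were above and 2 below (Npy, Gal), against 14.7% and 20.9%. In skeletal muscle-like cells 1 of 7 was above (Tac1) and 1 below (Npy), against 13.9% and 17.2%. The day pattern had served to choose the members, so nothing is read from these counts.

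The UMIs of Cck and Gal sat in very few cells. Of 1631 cells with a Cck UMI, 330 had at least 10, and these held 96.1% of all Cck UMIs. The highest cell held 1456 Cck UMIs, and 42 cells, 2.58% of the positive ones, held 50% of the total. Among 14402 genes with at least 1000 UMIs, ranked by that share from the most concentrated, Cck was number 20 and Gal number 19, with 37 cells holding 50% of the Gal UMIs. The median gene needed 28.6% of its positive cells. Penk (129), Tac1 (154) and Npy (202) also ranked early, and Vgf (953) was the most evenly spread, with 15.3% of its UMIs in the 27 cells that had at least 10. Many positive cells had only 1 UMI of the gene, from 30.6% for Penk to 82.7% for Cartpt, so the count of positive cells and the level rest on different cells.

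**Figure D3:**
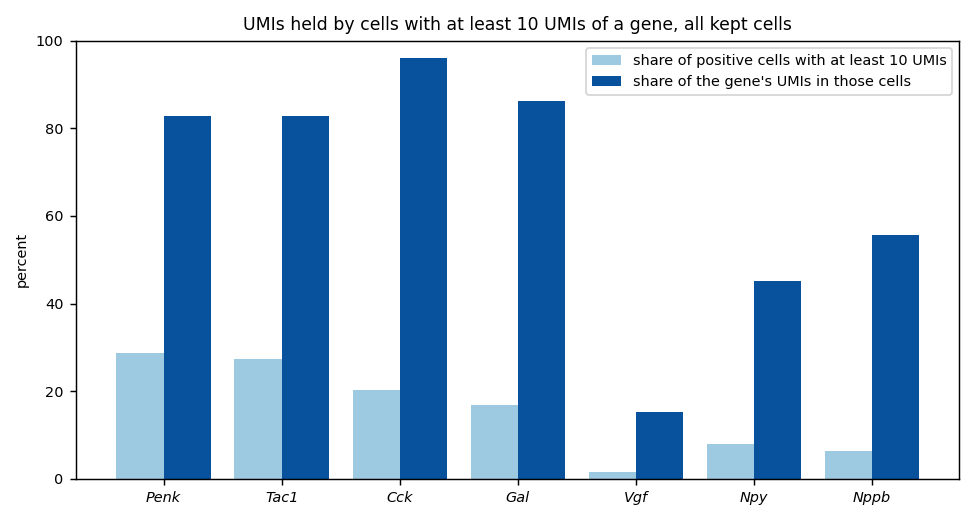
For 7 members, the light bars give the percent of cells with a UMI that had at least 10 UMIs of the gene and the dark bars the percent of the gene's UMIs that lay in those cells, over all kept cells (y axis in percent). For Cck 20.2% of positive cells held 96.1% of the UMIs, for Gal 16.9% held 86.2%, and for Vgf 1.59% held 15.3%.

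Cells high for 1 member, among the 73557 kept cells, were compared with those high for another. The overlaps are not set against the share of high cells over all kept cells. Neither avoidance nor joint expression is therefore read from them. Of 330 cells with at least 10 Cck UMIs and 249 with at least 10 Gal UMIs, 3 were in both sets (0.909% and 1.2%). For Tac1 and Penk, with 1671 and 8119 such cells, 70 were in both (4.19% and 0.862%). For Cck and Tac1 16 cells were in both (4.85% and 0.958%), 3 of the 17 cells with at least 10 Nppb UMIs were also high for Gal (17.6%), and no cell was high for Gal and Penk. At 3000 UMIs per cell Gal was found in 5.41% of neuron-like cells with a Cck UMI and 4.7% of those without, but in 17.4% and 0.765% of cells of the unnamed clusters, which pool several kinds of cell. At that depth 86.0% of neuron-like cells had no UMI of any member, 13.2% had 1 member and 0.801% had 2. Over the 34 clusters with at least 50 cells, and with no p since clusters share libraries and depth, the genes whose log2(CPM + 1) ran most like each member were Resp18, Gpr158 and Trank1 for Vgf (Pearson r of 0.94 each), Kcnv1, Pmch and 1810009J06Rik for Tac1 (0.94), Gas2, Adamtsl4 and Rspo2 for Penk (0.96 to 0.94), and Mmp12, Tnni2 and Lat2 for Npy (0.89 to 0.88). Cck ran with Sct, Nppc and 1810041L15Rik (0.80), Gal with Ccdc187, Crtac1 and Ecel1 (0.76) and Nppb with Ankrd1, Proser2 and Mpzl2 (0.82 to 0.79).

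The comparison of genotypes asked whether a member differed between WT, Per1-/- and Per2-/- in the same way on all 3 days. Counts were summed per library and class and fitted with day and genotype in edgeR (quasi-likelihood test, two-sided, Benjamini-Hochberg adjustment over all genes tested), so the days of a genotype served as its repeats. The p-values measure the spread between these libraries only, the 3 contrasts share libraries, and genotype cannot be told apart from the embryos of a preparation. Over 4 classes 81 tests of members could be made, and 27 had an unadjusted p under 0.05. The share of all genes with such a p is given beside each class, but a member that passed the filter on low counts only through the group where it was high had to differ, so nothing is read from the members' share. In 7 of the 81 tests, 4 of them among the 27, 1 genotype had at most 5 UMIs in each of its libraries. These were tests of Cartpt and Nppb in neuron-like and of Npy in skeletal muscle-like cells, and no difference is read from them. The plot of log2 differences marks them with hollow diamonds. Ranges over left-out libraries are given below for Cartpt (Per1-/- minus WT) and Npy (Per2-/- minus WT), only to show that their direction changed. The limit of 5 UMIs was set after the values were seen.

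In neuron-like cells 0 of 7 members passed an adjusted p of 0.05 in any contrast, where 0.0138% of all genes passed for Per1-/- minus WT and 0% for Per2-/- minus WT and for Per1-/- minus Per2-/-. Of these 21 tests 9 had an unadjusted p under 0.05, as did 5.13%, 4.41% and 7.76% of all genes in the same contrasts, and DESeq2 also passed 0 members. Vgf, whose levels per library are given above, was lower in Per1-/- than in Per2-/- on each day, and its log2 difference was -0.56 ± 0.12 (SE; edgeR adjusted p = 0.316). It passed with no filter on low counts (edgeR adjusted p = 0.00456) and in none of the other alternatives, where it went up to 0.9999. Cck was at 22, 43.3 and 6.56 CPM in WT on days 4, 7 and 10, at 32.6, 153 and 126 CPM in Per1-/- and at 19.6, 18.5 and 1.94 CPM in Per2-/-. Per1-/- was the highest on each day, with a log2 difference of 2.16 ± 0.64 against WT (edgeR adjusted p = 0.711) and 3.0 ± 0.67 against Per2-/- (adjusted p = 0.347), neither past the threshold. Without the Per1-/- library of day 4 both passed (edgeR adjusted p = 0.0441 and 0.0107), and both also passed with no filter on low counts (2.51e-07 and 3.75e-11), a setting in which 122 and 276 genes passed in all. With no filter Tac1 passed between Per2-/- and WT as well (edgeR adjusted p = 0.0316), and so did Cartpt in both contrasts with Per2-/-. The share of neuron-like cells in cluster 27, the neuron-like cluster with the highest Cck level, was 2.62%, 8.71% and 23.3% in WT, 3.29%, 16.0% and 21.3% in Per1-/- and 5.12%, 15.9% and 11.2% in Per2-/- on days 4, 7 and 10, and its part in the difference was not tested. Cartpt, at 48 and 33 UMIs in Per2-/- on days 7 and 10 and at most 5 UMIs elsewhere, passed the filter through these libraries.

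In fibroblast-like cells 0 of 8 members passed, with 0% of all genes past the threshold for Per1-/- minus WT, 0% for Per2-/- minus WT and 0% for Per1-/- minus Per2-/-. Unadjusted p under 0.05 was found in 2 of 24 tests of members and for 6.69%, 7.59% and 11.1% of all genes, and DESeq2 passed 0 members. Penk was lower in Per1-/- than in WT on each day, by a log2 difference of -0.33 ± 0.11 (edgeR adjusted p = 0.675). Tac1 differed by -0.68 ± 0.40 between Per1-/- and WT (edgeR adjusted p = 0.816), within the spread between libraries. On day 10 the class held 55.0% of Per1-/- cells but 20% of WT and 18.1% of Per2-/- cells. The part of this unlike makeup in the differences was not tested.

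In macrophage-like cells 0 of 5 members passed, against 0.0158% of all genes for Per1-/- minus WT, 0% for Per2-/- minus WT and 0.00791% for Per1-/- minus Per2-/-. Unadjusted p under 0.05 was found in 5 of 15 tests of members and for 6.93%, 16% and 16.3% of all genes, and DESeq2 passed 1, Cck between Per1-/- and Per2-/-, which also passed with no filter on low counts, as did Penk in that contrast (edgeR adjusted p = 0.00416 and 0.0239). Npy, whose levels per library are given above, differed by -1.58 ± 0.58 on the log2 scale between Per2-/- and WT (edgeR adjusted p = 0.260). Without the Per2-/- library of day 4, which held 196 macrophage-like cells, the Npy difference was -2.45 ± 0.36 and passed (edgeR adjusted p = 0.00833), as did Tac1 and Penk in that contrast and Cck, Tac1, Penk and Npy between Per1-/- and Per2-/-. That fit also passed 1322 genes in all for Per2-/- minus WT, so the call depends on this library. Cck in macrophage-like cells was at most 3.25 CPM and was highest in the libraries of Per1-/- on days 7 and 10, the same that were highest in skeletal muscle-like cells, and the part of free RNA was not tested.

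In skeletal muscle-like cells, tested after the data had been seen, 1 of 7 members passed in 1 contrast, against 0% of all genes for Per1-/- minus WT, 0.0146% for Per2-/- minus WT and 0.0293% for Per1-/- minus Per2-/-. Unadjusted p under 0.05 was found in 11 of 21 tests of members and for 4.88%, 9.46% and 9.52% of all genes. The member was Npy between Per1-/- and Per2-/-, a call that is not read as a difference, since the gene was past the filter on low counts through day 4 libraries only. Its counts were 82, 0 and 0 UMIs in WT on days 4, 7 and 10, 576, 0 and 3 in Per1-/- and 3, 1 and 0 in Per2-/-, and 1 cell held 569 of the 576. Without the highest cell of each library Npy fell below the filter and was not tested, and DESeq2 did not pass it (adjusted p = 0.930). Cck, with the Per1-/- library highest and the Per2-/- library lowest on each day, differed by 2.67 ± 0.47 between them on the log2 scale, a 6.37-fold difference (edgeR adjusted p = 0.174), and by 1.8 ± 0.45 between Per1-/- and WT (adjusted p = 0.588). It passed between Per1-/- and Per2-/- with DESeq2 (adjusted p = 0.00391), without the Per1-/- library of day 4 (edgeR adjusted p = 0.00116) and without the Per2-/- library of day 4 (edgeR adjusted p = 0.0234). The first of these left-out libraries also let Cck pass between Per1-/- and WT (edgeR adjusted p = 0.0151). With no filter on low counts Cck passed in both of these contrasts (edgeR adjusted p = 5.02e-05 and 0.00635), as did Penk, while Gal passed in both contrasts with Per2-/-, Npy in all 3 and Nppb between Per1-/- and WT. Cells with at least 10 Cck UMIs made up 6.89%, 14.2% and 8.51% of skeletal muscle-like cells in Per1-/- on days 4, 7 and 10, 5.44%, 5.88% and 3.39% in WT and 3.76%, 3.32% and 0.555% in Per2-/-. Penk differed by -1.30 ± 0.25 between Per1-/- and Per2-/- (edgeR adjusted p = 0.185), and it passed with DESeq2 (adjusted p = 0.0011) and without the Per1-/- library of day 4 (edgeR adjusted p = 0.0152). Of 3330 skeletal muscle-like cells, 34 had at least 10 Gal UMIs and held 96.2% of the 4297 in the class, 933 of them in 1 cell. Differences of Gal here therefore rest on few cells. Gal differed by -2.43 ± 0.74 between Per2-/- and WT (edgeR adjusted p = 0.381), and among single libraries left out it passed only without WT of day 10 (log2 difference -3.15 ± 0.20, edgeR adjusted p = 0.00333), a library in which Gal had 3 UMIs in this class. Between Per1-/- and Per2-/- Gal differed by 3.04 ± 0.72 (edgeR adjusted p = 0.252) and likewise passed without that library (edgeR adjusted p = 0.00273).

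**Figure D4:**
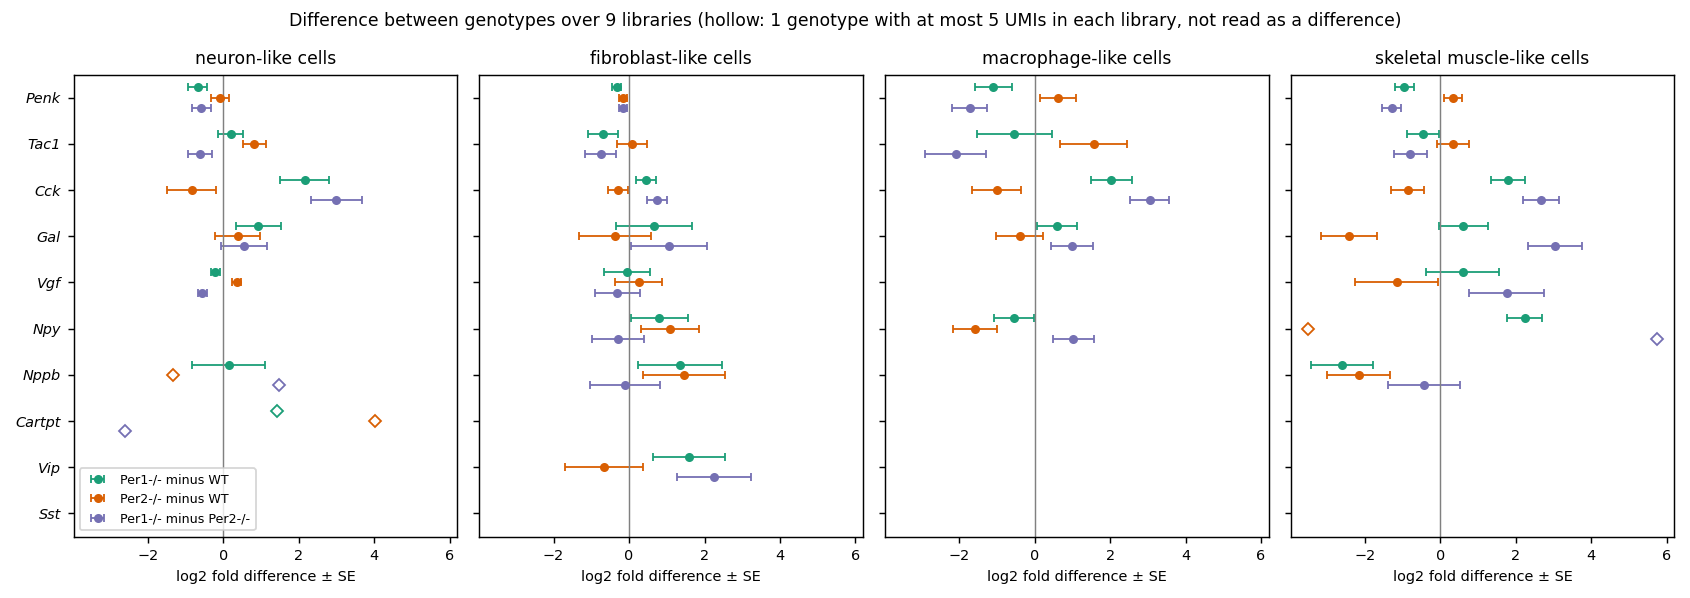
Log2 difference between genotypes on the x axis with bars of 1 SE, for each member that passed the filter on low counts (y axis) in 4 cell classes over the 9 libraries, with 1 colour per contrast. Hollow diamonds without bars mark the 7 tests in which 1 genotype had at most 5 UMIs in each library, and of the others none had an edgeR adjusted p under 0.05. In skeletal muscle-like cells Cck lies at 2.67 ± 0.47 for Per1-/- minus Per2-/-, and the contrasts share libraries.

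The enzymes and the receptors of the members, and further neuropeptide genes, were taken from lists written for this report. Of 46 other neuropeptide and peptide hormone genes 8 reached 5 CPM in neuron-like cells, 4 in fibroblast-like, 7 in skeletal muscle-like and 0 in macrophage-like cells. The highest in neuron-like cells was Nts, the neurotensin precursor, whose ranges were 20 to 53.2, 550 to 620 and 657 to 1365 CPM on the 3 days. Pcsk1n, which encodes the precursor proSAAS, went from 59.5 to 65.7 CPM on day 4 up to 265 to 504 by day 10. The clusters of the class changed with the day, and 22.2% of all genes past the filter were above on day 10. Pcsk1n was among the leading genes of cluster 22, which had 97.8% of its cells from day 10. After Nts and Pcsk1n came Gcg (proglucagon; 24.0 ± 6.92 CPM), Pomc (the precursor of ACTH and beta-endorphin; 21.1 ± 21.0) and Adcyap1 (the precursor of PACAP; 12.1 ± 3.27). Of the 15 that could be tested in neuron-like cells 1 passed, against 0.0138% of all genes in that contrast. It was Sct, the secretin gene, which was higher in Per1-/- than in WT. Unadjusted p under 0.05 was found for 2, 2 and 4 of the 15, beside the shares of all genes given above for this class. Sct was at 0.950, 4.20 and 2.67 CPM in WT on days 4, 7 and 10, at 3.05, 22.2 and 15.7 CPM in Per1-/- and at 3.53, 18.8 and 6.82 CPM in Per2-/-. WT was the lowest on each day. The log2 difference was 2.27 ± 0.28 between Per1-/- and WT (edgeR adjusted p = 0.0433) and 1.86 ± 0.27 between Per2-/- and WT (adjusted p = 0.117). The first call was lost with doublets kept (edgeR adjusted p = 0.231), with finer clusters (0.105), with no day term and without any 1 of 6 libraries (0.0738 to 0.608), while DESeq2 kept it (adjusted p = 2.01e-08). Sct was higher in skeletal muscle-like cells, at 39.7 ± 17.4 CPM.

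All 15 prohormone processing enzymes were measured, and 11 reached 5 CPM in neuron-like, 13 in skeletal muscle-like, 11 in fibroblast-like and 8 in macrophage-like cells. Pcsk2, the convertase PC2, was at 219 ± 62.4 CPM in neuron-like cells and at 5.68 ± 2.49 in skeletal muscle-like, 3.41 ± 3.05 in fibroblast-like and 0.505 ± 0.599 in macrophage-like cells. Its chaperone 7B2, encoded by Scg5, was at 301 ± 40.7 CPM in neuron-like cells, 37.3 ± 11.7 in skeletal muscle-like and 1.78 ± 1.13 in fibroblast-like cells. Cpe, the carboxypeptidase that trims the cut ends, was at 336 ± 12.5 CPM in neuron-like and 165 ± 53.7 and 154 ± 27.1 in skeletal muscle-like and fibroblast-like cells. Pam, which amidates peptides, was at 75.7 ± 15.3 CPM in neuron-like and 135 ± 23.1 in fibroblast-like cells, and Ctsl, a cathepsin, at 303 ± 60.3 and 507 ± 48.4. Fibroblast-like and skeletal muscle-like cells, which held most UMIs of Penk, Tac1 and Cck, had Cpe and Pam. Their Pcsk2 and Scg5 were at a lower level than in neuron-like cells. Of the 15 enzymes 11 also reached 5 CPM in mesothelial-like and in chondrocyte-like, 10 in astrocyte-like and 8 in Schwann-like cells. Such a count therefore did not set the classes with most Penk, Tac1 and Cck apart. No enzyme passed the test between genotypes in any of the 4 classes (0 of 15, 15, 13 and 13 tested by edgeR), with 1 to 6 unadjusted p under 0.05 per contrast and class. The 6 were among 13 enzymes for Per1-/- minus Per2-/- in macrophage-like cells, where 16.3% of all genes had such a p, and over the other contrasts and classes that share was 4.41% to 16%.

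Of 27 receptors of the members 3 reached 5 CPM in neuron-like, 4 in skeletal muscle-like, 3 in fibroblast-like and 1 in macrophage-like cells. Those of neuron-like cells were Npy1r, a receptor of neuropeptide Y (24.0 ± 5.57 CPM), Npr2 (17.8 ± 4.45) and Adcyap1r1, the receptor of PACAP and more weakly of VIP (14 ± 3.09). Npr2 is a guanylyl cyclase receptor of the natriuretic peptide family, listed without regard to how strongly the Nppb peptide acts on it. Sstr2 (2.46 ± 0.968) and Galr3 (1.69 ± 1.21) followed. Npr2 was higher in skeletal muscle-like (32 ± 5.14 CPM) and fibroblast-like cells (30.5 ± 2.91). Npy1r was also at 17.2 ± 8.21 CPM in fibroblast-like cells, where it was among the leading genes of cluster 18, which is one of the pair with the most Tac1, and it was at 0.282 ± 0.173 CPM in macrophage-like cells, which held most Npy. No receptor passed the test between genotypes (0 of 9, 14, 4 and 9 tested in neuron-, fibroblast-, macrophage- and skeletal muscle-like cells by edgeR, with 1 to 4 unadjusted p under 0.05 per contrast and class). The 4 were among 9 receptors for Per2-/- minus WT in neuron-like cells, where 4.41% of all genes had such a p. Of the other neuropeptide genes none passed in fibroblast-, macrophage- or skeletal muscle-like cells (0 of 30, 6 and 14). Unadjusted p under 0.05 was found for 1 to 5 of the 30 and 0 to 2 of the 6, and in skeletal muscle-like cells for 5, 6 and 5 of the 14, where 4.88%, 9.46% and 9.52% of all genes had such a p.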

How the data were processed

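Single-cell RNA was measured in 9 libraries (10x 3′ chemistry v3.1), grouped by the labels' genotype and day. The deposited matrices hold whole-number UMI counts per gene and barcode. Headers written by the authors' software name Cell Ranger 4.0.0 in the days 4 and 7 files (31053 genes) and 6.0.0 in the day 10 files (32285 genes). The submitters' processing notes name Cell Ranger 7.1 and mm10. The 30406 shared gene identifiers were used. The 10 members and all gene lists were chosen with earlier results of these data known.

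Barcodes with at least 3000 UMIs and at most 20% mitochondrial UMIs were kept, 81999 of 95603. Doublets were scored per library against simulated ones, and the highest-scoring cells, 0.8% per 1000 barcodes, were left out (8442 cells). Cells were clustered on 2000 variable genes, 30 principal components and 15 neighbours (Leiden, leidenalg 0.10.2, resolution 1, 35 clusters), with 122 genes, the members and lists among them, kept out. Clusters were named when the markers of a class had a mean log2 fold of at least 1, and fibroblast-like clusters when at least 14 of 19 markers were present in at least 50% of cells. A cluster led by fat cell genes was left unnamed after the data were seen. The class names are rebuilt, not the authors'.

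UMI counts were summed per class and library and scaled to CPM, with exact Poisson and Clopper-Pearson 95% intervals that cover counting error only, since no molecule count replaces a second culture. Genotypes were tested in edgeR 4.0.16 (R 4.3.3; TMM, filterByExpr, quasi-likelihood F-test, with terms for day and genotype), and p-values were adjusted by Benjamini-Hochberg across every gene past the filter. On simulated counts with 100 genes changed 2-fold between Per1-/- and WT, the test recovered 82% of them in neuron-like (14454 genes), 69% in fibroblast-like, 75% in macrophage-like and 76% in skeletal muscle-like cells. Another 100 genes were changed 4-fold in the same run. Each simulated gene had 1 mean for all days, and all genes had the same spread between libraries. Members can spread more, so these shares do not say how often a 2-fold difference of a member would be found. Named genes were the members, the 5 highest of each list in neuron-like cells, any list gene that passed a test, and the 3 genes most like each member over clusters. Alternatives were DESeq2 1.42.0, RLE scaling, no filter, no day term, doublets kept, other clusterings, each library left out and, added after seeing the data, the highest cell left out.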

Additional observations from a re-analysis of the deposited data

How the results depend on the processing

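The mean CPM of the members in neuron-like cells moved by less than 1 SD in all 140 alternatives. That SD is taken over the 9 libraries, and leaving out 1 of 9 values cannot move a mean by so much. Nothing is therefore read from the left-out libraries here, over which the mean ran from 33.8 to 52.7 CPM for Cck. It ran from 60.3 to 87.0 CPM for Gal, 0.463 to 0.892 for Cartpt and 0.113 to 0.297 for Vip. Of the log2 differences of members 1142 alternatives kept direction and side of the threshold, 35 passed it, 7 fell short of it and 67 changed direction. Those 67 belong to 29 of the 81 differences, all short of the threshold both as reported and in the alternative, so their direction is not settled. The counts of genes past the threshold did depend on the settings, and the cause was not tested. Below, triplets are in the order Per1-/- minus WT, Per2-/- minus WT, Per1-/- minus Per2-/-, where the reported counts of all genes were 2, 0 and 0 in neuron-like, 0, 0 and 0 in fibroblast-like, 2, 0 and 1 in macrophage-like and 0, 2 and 4 in skeletal muscle-like cells.

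With DESeq2 the genes numbered 23, 17 and 43 in neuron-like, 109, 110 and 246 in fibroblast-like, 62, 147 and 180 in macrophage-like and 27, 80 and 88 in skeletal muscle-like cells, and for Per1-/- minus Per2-/- the members numbered 1 in macrophage-like and 2 in skeletal muscle-like cells. With no filter on low counts the genes numbered 122, 141 and 276 in neuron-like, 2, 0 and 1 in fibroblast-like, 55, 256 and 437 in macrophage-like and 56, 159 and 239 in skeletal muscle-like cells. The members then numbered 1, 2 and 3 in neuron-like, 0, 0 and 2 in macrophage-like and 4, 2 and 4 in skeletal muscle-like cells. These counts include Cartpt in both neuron-like contrasts with Per2-/- and Npy in both skeletal muscle-like contrasts with Per2-/-, tests from which no difference is read. Npy also counted for Per1-/- minus WT in skeletal muscle-like cells, where 1 cell held 569 of the 665 Npy UMIs of the class. With no day term the genes numbered 0 in neuron-like and macrophage-like cells and 0, 1 and 1 in skeletal muscle-like cells, with 0 members. With doublets kept, Per1-/- minus WT gave 0 genes in neuron-like and 1 in macrophage-like cells. With finer clusters (Leiden resolution 2) the genes numbered 0, 5 and 1 in neuron-like cells, 1 for Per1-/- minus WT in macrophage-like cells, and 14 and 19 for the last contrasts in skeletal muscle-like cells. RLE scaling gave 1 gene for Per1-/- minus WT in macrophage-like cells. Without the highest cell of each library, Per1-/- minus Per2-/- in skeletal muscle-like cells gave 2 genes and 0 members.

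With each library left out in turn the genes ranged from 0 to 26, 0 to 34 and 0 to 88 in neuron-like, 0 to 68, 0 to 7 and 0 to 324 in fibroblast-like, 1 to 11, 0 to 1322 and 1 to 1827 in macrophage-like, and 0 to 13, 1 to 43 and 1 to 111 in skeletal muscle-like cells. The members ranged from 0 to 1, 0 to 0 and 0 to 1 in neuron-like, 0 to 0, 0 to 3 and 0 to 4 in macrophage-like, and 0 to 1, 0 to 1 and 0 to 2 in skeletal muscle-like cells, and were 0 in fibroblast-like cells. The highest of these gene counts in macrophage-like cells came without Per2-/- on day 4, and those in neuron-like cells without a day 4 library of Per1-/- or Per2-/-. No paired analysis was possible because each genotype and day had 1 library and the labels give no replicate numbers, and day was already a term of the fit.

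The changes of direction came with a left-out library in 51 alternatives and with another setting in 16. Over left-out libraries the log2 difference in neuron-like cells for Per1-/- minus WT ran from -1.51 to 0.73 for Nppb, -0.0719 to 0.82 for Tac1, -0.68 to 2.61 for Cartpt and -0.41 to 1.38 for Gal. For Per2-/- minus WT it ran from -0.39 to 0.13 for Penk and -0.26 to 1.13 for Gal, and for Per1-/- minus Per2-/- from -0.51 to 1.14 for Gal. In fibroblast-like cells the ranges for Per1-/- minus WT were -0.48 to 0.51 for Vgf, -0.56 to 1.64 for Gal and -0.22 to 2.19 for Nppb. For Per2-/- minus WT they were -0.32 to 0.89 for Vgf, -1.26 to 0.48 for Gal, -0.26 to 0.46 for Tac1 and -1.51 to 1.89 for Vip. For Per1-/- minus Per2-/- they were -1.74 to 0.78 for Nppb, -0.97 to 0.69 for Npy, -0.50 to 1.96 for Gal and -0.93 to 0.38 for Vgf. In macrophage-like cells Gal ran from -0.18 to 3.03, -0.82 to 2.06 and -0.58 to 1.45 over the 3 contrasts, and for Per1-/- minus WT Tac1 ran from -1.91 to 0.24 and Npy from -1.13 to 0.0307. In skeletal muscle-like cells the ranges for Per1-/- minus WT were -0.26 to 1.73 for Gal and -0.38 to 2.36 for Vgf. For Per2-/- minus WT they were -4.00 to 0.87 for Npy, -1.96 to 0.86 for Vgf and -0.27 to 0.67 for Tac1, and for Per1-/- minus Per2-/- Nppb ran from -1.44 to 0.93.

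With DESeq2 the direction changed for Nppb in neuron-like cells (Per1-/- minus WT, -1.07) and fibroblast-like cells (Per1-/- minus Per2-/-, 0.0181) and for Gal in macrophage-like cells (Per2-/- minus WT, 0.98). In fibroblast-like cells it changed with finer clusters for Gal (-1.24) and Nppb (-0.41) for Per1-/- minus WT and Vgf for Per2-/- minus WT (-0.16). There it also changed for Vgf (Per1-/- minus WT) and Nppb (Per1-/- minus Per2-/-) with doublets kept (0.0103 and 0.0414) and with no day term (0.19 and 0.66). With no day term Gal for Per1-/- minus WT in skeletal muscle-like cells was at -0.11. Without the highest cell of each library the direction changed for Tac1 (Per1-/- minus WT, -0.0634) and Penk (Per2-/- minus WT, 0.12) in neuron-like, Vgf (Per1-/- minus WT, 0.27) in fibroblast-like, Gal (Per2-/- minus WT, 4.49) in macrophage-like and Nppb (Per1-/- minus Per2-/-, 1.81) in skeletal muscle-like cells. The causes were not tested.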

Other observations

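Member transcripts were also counted in unnamed clusters, and the part of free RNA and of doublets in them was not tested. Cluster 11, nearly all from WT on day 10 and led by Snhg11, Mt3 and Fabp7, held 375 CPM of Penk, 55.6 CPM of Tac1, 51.5 CPM of Gal, 27.2 CPM of Cck and 6.71 CPM of Vgf, and 28.4% of its cells before filtering were scored as doublets. Over all kept cells of WT on day 10 these genes were at 425, 49.8, 8.74, 21.8 and 3.38 CPM in the same order. Cluster 7, led by Wnt4, Pou3f1 and Syt13, held 174 CPM of Tac1 and 77.7 CPM of Cck, and 41.3% of its cells had been scored as doublets. Cluster 31, 203 cells led by Hmga1, Tagln and Acta2, held 88.0 CPM of Gal, all from 1.97% of its cells.

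Sct was the gene whose level over clusters ran most like that of Cck (Pearson r = 0.80 over 34 clusters, which share libraries), and it was also the neuropeptide gene outside the members that passed the test between Per1-/- and WT in neuron-like cells, a call that was lost in 9 of 15 alternatives. Both were highest in skeletal muscle-like cells, at 669 ± 783 CPM for Cck and 39.7 ± 17.4 CPM for Sct (SD, n = 9). In that class the log2 difference of Sct was 0.08 ± 0.23 (SE) between Per1-/- and WT (edgeR adjusted p = 0.999). Between Per1-/- and Per2-/- it was -0.78 ± 0.22 (edgeR adjusted p = 0.306). Cck was highest in Per1-/- on each day there, so Sct and Cck did not run alike by genotype in that class.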
